A study of Homo sapiens with 12 samples.

Results

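The zinc finger genes whose symbols start with ZBTB, ZSCAN or ZKSCAN were described in HepG2, an established human liver cancer cell line. They were taken by symbol alone, as ZBTB or ZSCAN with a number and at most 1 closing letter, or ZKSCAN with a number, and 60 of the 16389 genes in the deposited count table qualified. Of these, 38 were ZBTB genes, 15 were ZSCAN genes and 7 were ZKSCAN genes. The cells were kept in low glucose (LG, 5.5 mM) or cultured for 48 h in high glucose (HG, 20 mM), and valproic acid (VPA, 1 mM) was then given for 12 h in either medium (LGV and HGV), with 3 RNA-seq libraries per group. All groups came from the same line at an early passage from a cell bank, and the methods do not say whether the untreated cells were harvested with the treated ones. The labels do not say that libraries of a group came from separate cultures, so the p-values measure the spread between libraries, which may be technical.

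ZBTB proteins carry an N-terminal BTB (POZ) domain, through which they pair and recruit co-repressors such as NCOR1 and BCOR, and C-terminal C2H2 zinc fingers that bind DNA. ZSCAN proteins carry a SCAN domain in its place, which mediates pairing among SCAN proteins, and most ZKSCAN proteins add a KRAB domain, which recruits the co-repressor TRIM28. VPA inhibits class I and IIa histone deacetylases, enzymes that also act within the complexes these factors recruit. In liver, the family is best known for ZBTB20, which silences the fetal gene AFP after birth.

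Between 29798442 and 45572694 reads per library were counted on the genes of the table. The 9 hepatocyte markers summed to between 52000 and 58700 CPM (counts scaled to library size with the TMM factors of edgeR) in LG, 40000 to 41000 CPM in LGV, 53000 to 60900 CPM in HG and 47000 to 61600 CPM in HGV, so that LGV lay below every other group. Of 4 leukocyte markers CD3E and PTPRC were not in the table, and the other 2 summed to between 1.65 and 3.42 CPM in LG, 3.36 and 3.79 CPM in LGV, 4.98 and 5.56 CPM in HG, and 6.02 and 6.41 CPM in HGV. Endothelial markers summed to at most 4.85 CPM. Fibroblast or stellate cell markers, of which COL1A2 and DCN were not in the table, summed to between 37.9 and 58.3 CPM in LG and between 18.8 and 29.3 CPM in HG, and the part of these marker differences in the results was not tested. Within HG, replicate 1 was the highest library for 36 of the 60 genes and replicate 2 the lowest for 33, while within HGV replicate 2 was the lowest for 33.

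The promoters of 4 genes are shown because these are neighbours that moved in opposite directions with VPA in high glucose. ZBTB8B and ZBTB8A start 74355 bases apart on the same strand of chromosome 1. ZBTB1 and ZBTB25 both have alternative start sites. The pair of starts nearest each other is used, 49 bases apart on opposite strands of chromosome 14. The 250 bases before the start site are given 5′ to 3′ from RefSeq (GRCh38.p14), with CpG dinucleotides in capitals, for ZBTB8B at chr1:32464822-32465071 (plus strand), ZBTB8A at chr1:32539177-32539426 (plus strand), ZBTB1 at chr14:64503637-64503886 (plus strand) and ZBTB25 at chr14:64503839-64504088 (minus strand).
ZBTB8B: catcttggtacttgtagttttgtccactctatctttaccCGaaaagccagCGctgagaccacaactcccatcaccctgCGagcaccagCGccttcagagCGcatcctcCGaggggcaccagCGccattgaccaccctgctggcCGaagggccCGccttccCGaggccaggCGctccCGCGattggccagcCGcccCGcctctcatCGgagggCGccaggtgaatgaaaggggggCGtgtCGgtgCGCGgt
ZBTB8A: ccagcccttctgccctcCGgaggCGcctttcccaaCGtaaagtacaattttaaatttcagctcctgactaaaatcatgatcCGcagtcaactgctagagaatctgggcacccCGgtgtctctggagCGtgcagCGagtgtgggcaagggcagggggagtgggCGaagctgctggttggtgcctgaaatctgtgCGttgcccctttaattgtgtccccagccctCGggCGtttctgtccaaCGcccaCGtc
ZBTB1: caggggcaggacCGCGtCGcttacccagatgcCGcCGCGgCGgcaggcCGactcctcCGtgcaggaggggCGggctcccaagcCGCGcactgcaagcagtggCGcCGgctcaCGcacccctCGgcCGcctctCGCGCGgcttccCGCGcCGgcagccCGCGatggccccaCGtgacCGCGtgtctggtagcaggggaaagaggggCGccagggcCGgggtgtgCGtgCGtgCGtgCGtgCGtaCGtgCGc
ZBTB25: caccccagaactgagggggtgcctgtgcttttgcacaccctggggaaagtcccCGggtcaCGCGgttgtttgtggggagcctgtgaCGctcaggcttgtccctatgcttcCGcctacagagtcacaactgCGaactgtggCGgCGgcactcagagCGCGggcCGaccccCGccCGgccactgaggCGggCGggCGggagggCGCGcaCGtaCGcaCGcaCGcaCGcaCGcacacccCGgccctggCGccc
The capitals mark 21 CpG before ZBTB8B, 13 before ZBTB8A, 37 before ZBTB1 and 26 before ZBTB25. The ZBTB1 and ZBTB25 windows overlap, so the CpG they share are counted for both. The median was 17 CpG over the 97 windows found for 53 of the 60 genes, and 11 over all 35116 windows of the table. The GC box GGGCGG, searched on both strands with overlapping matches counted, was in 57.7% of the windows of these genes and 42.6% of all windows, and it stood once before ZBTB8B, once before ZBTB1 and 3 times before ZBTB25. The E-box CACGTG, which is its own reverse complement, was in 7.2% of the windows of these genes and 6.3% of all, and the ZBTB1 window held it once.

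Levels of the 60 genes were compared as CPM per kilobase of merged exon (RPKM), because longer genes collect more reads. In LG the highest levels were those of ZBTB7B, known as ThPOK for its role in CD4 T cells (14.7 RPKM), ZBTB2 (13.5 RPKM), ZKSCAN1 (11.9 RPKM), and ZBTB38 and ZBTB40 (11.6 RPKM each). In HGV the highest were ZKSCAN1 (10.1 RPKM), ZBTB5 and ZKSCAN8 (9.19 RPKM each), while ZBTB38 stood at 2.60 RPKM and ZBTB2 at 5.01 RPKM. ZBTB20 was near the bottom in all 4 groups, between 0.0233 and 0.0251 RPKM, from 17 to 42 reads per library. Its length and count are uncertain, since 43% of its exon bases also belong to another gene of the table on the same strand. How reads on shared bases were counted is not given in the sources used here. The 60 genes together took between 1419 and 1611 CPM in LG, 1273 to 1452 CPM in LGV, 1230 to 1401 CPM in HG and 981.7 to 1136 CPM in HGV, so that all HGV libraries lay below all others. In bulk samples, fewer cells that express a gene and less of its RNA per cell cannot be told apart.

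In high glucose, more of these genes fell with VPA than rose. Of 60 genes tested between HGV and HG, 17 fell (28.3%) and 6 rose (10.0%) at an FDR of 0.05 or less in edgeR's quasi-likelihood test, beside 20.2% of all genes lower and 25.8% higher. The median log2 fold change was -0.17 for the 60 genes and 0.03 for all 16188 genes tested. Among ZBTB genes 12 of 38 fell and 4 rose, among ZSCAN genes 3 of 15 fell and 1 rose, and among ZKSCAN genes 2 of 7 fell and 1 rose. The split between directions depended on the scaling: 8 rose and 14 fell with upper quartile factors, and 11 rose and 13 fell with library size only, where the median of all genes itself moved to 0.15. The number that rose was 3 without HG replicate 3, without HGV replicate 1 or without HGV replicate 3.

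**Figure D1:**
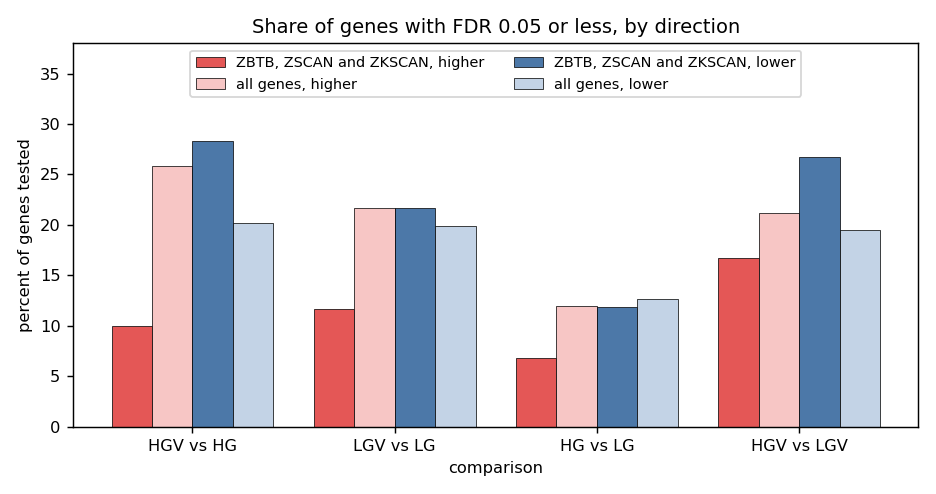
Share of the genes tested with an FDR of 0.05 or less in each comparison and direction, in percent, for the ZBTB, ZSCAN and ZKSCAN genes (dark bars) and all genes tested (pale bars). In HGV against HG the dark bar is 28.3% for lower and 10.0% for higher, against pale bars of 20.2% and 25.8%.

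In low glucose the same question gave 13 genes that fell (21.7%) and 7 that rose (11.7%) of 60 between LGV and LG, beside 19.9% of all genes lower and 21.7% higher. The median log2 fold change was -0.06 for these genes and -0.01 for all genes. Among ZBTB genes 8 fell and 6 rose, among ZSCAN genes 3 fell and 1 rose, and among ZKSCAN genes 2 fell and none rose. With upper quartile factors 9 rose and 10 fell, and with library size only 12 rose and 6 fell, where the median of all genes moved to 0.16. Without LG replicate 1 only 3 rose, without LGV replicate 1 or 3 only 4 rose, and without LGV replicate 2 or 3 only 8 fell.

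**Figure D2:**
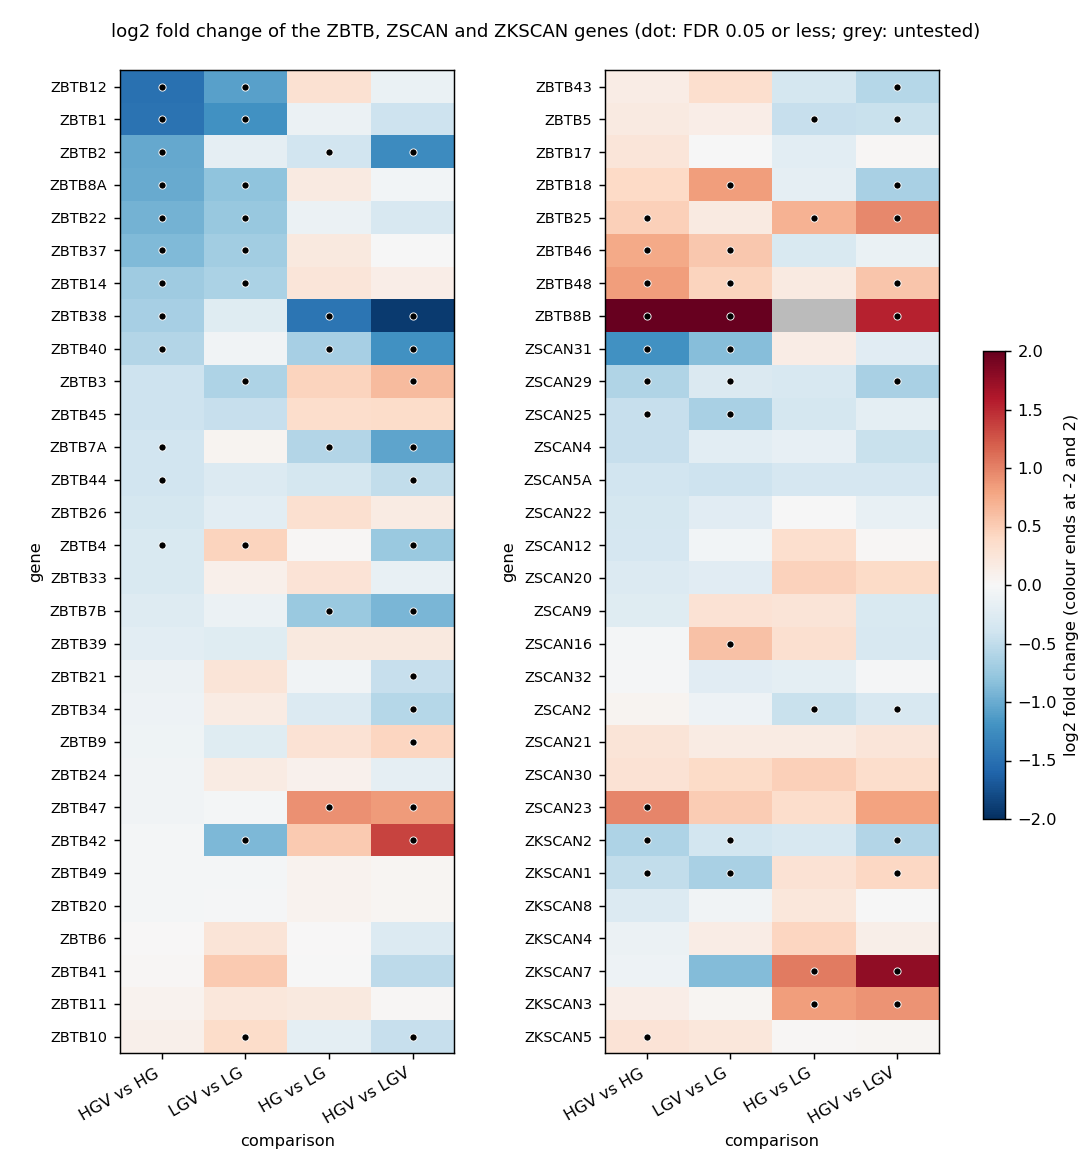
log2 fold change of each of the 60 genes (rows, by family and then by the HGV against HG value) in 4 comparisons (columns), with a dot where the FDR was 0.05 or less and grey where the gene was untested. The blue block at the top left holds the genes that fell most with VPA, led by ZBTB12 (-1.50) and ZBTB1 (-1.48), and colour ends at 2, so ZBTB8B exceeds the scale.

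ZBTB12, at chr6:31867390-31869863 (GRCh37, minus strand) in the major histocompatibility region, gave the largest fall in high glucose. It stood at 20.6, 21.0 and 21.3 CPM in HG against 7.85, 6.42 and 8.06 CPM in HGV. In low glucose it was 20.4, 16.1 and 15.2 CPM in LG against 7.56, 8.93 and 7.74 CPM in LGV. No treated library reached an untreated one in either medium, and the HG libraries were nearly alike. The log2 fold change was -1.50 ± 0.13 (SE, n = 3 per group, FDR 1.94e-06) in high glucose and -1.08 ± 0.17 (FDR 0.00011) in low glucose. Of its exon bases 7.2% overlap the complement gene C2 on the opposite strand, and the strand setting of the read counting is not given in the sources used here.

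ZBTB1, a repressor needed for lymphoid development in mice, lies at chr14:64970430-65000408 (GRCh37, plus strand) and also fell in both media. Its HG libraries held 20.0, 13.8 and 15.6 CPM and its HGV libraries 6.16, 4.33 and 7.29 CPM. In LG it was at 14.5, 21.3 and 18.4 CPM and in LGV at 9.06, 7.31 and 6.97 CPM. The highest treated library was below the lowest untreated library in both media. The log2 fold change was -1.48 ± 0.20 (FDR 6.92e-05) in high glucose and -1.21 ± 0.18 (FDR 9.57e-05) in low glucose.

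ZBTB25, which starts 49 bases from ZBTB1 in the promoter windows shown above and is known as a repressor in T cells, had the opposite direction in high glucose. It was at 8.78, 8.22 and 6.97 CPM in HG and at 11.4, 10.0 and 12.0 CPM in HGV, without overlap. The rise was 0.48 ± 0.14 on the log2 scale (FDR 0.0161), and the call was lost without HG replicate 3, HGV replicate 1 or HGV replicate 3 and in the fit of all 12 libraries together (highest FDR 0.0982). In low glucose ZBTB25 was at 4.67, 3.42 and 6.97 CPM in LG and 7.83, 4.58 and 4.59 CPM in LGV, which overlap. Exons of ZBTB25 overlap ZBTB1 (500 bases) and MTHFD1 on the other strand, 678 bases together (5.5% of its exon bases).

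ZSCAN31 was the SCAN gene that fell most, within the SCAN gene cluster of chromosome 6 at chr6:28292470-28324048 (GRCh37, minus strand). Its HG libraries held 10.2, 8.73 and 9.35 CPM and its HGV libraries 5.21, 3.07 and 4.06 CPM. In low glucose LG was at 8.34, 7.54 and 10.0 CPM and LGV at 4.83, 4.71 and 4.67 CPM. The LGV libraries were nearly equal and well below LG. The log2 fold change was -1.21 ± 0.19 (FDR 0.000223) in high glucose and -0.86 ± 0.18 (FDR 0.00176) in low glucose. ZKSCAN3, whose gene body overlaps that of ZSCAN31 on the other strand but shares no exon base with it, did not pass the test for VPA in either medium.

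ZBTB22 fell by 0.94 ± 0.12 on the log2 scale in high glucose (FDR 3.05e-05) and by 0.76 ± 0.14 in low glucose (FDR 0.000644). ZBTB8A fell by 1.01 ± 0.17 (FDR 0.000301) and by 0.81 ± 0.24 (FDR 0.0151), the second of which was lost without LGV replicate 2 or 3 and with library size only (highest FDR 0.101). ZBTB37 fell by 0.88 ± 0.24 (FDR 0.00907) and by 0.70 ± 0.17 (FDR 0.00437, 0.0505 with library size only). ZBTB14 fell by 0.72 ± 0.15 (FDR 0.00168) and by 0.64 ± 0.18 (FDR 0.0115), and in low glucose the call was lost without LG replicate 3 and with library size only. ZSCAN25 fell by 0.47 ± 0.10 (FDR 0.00239) and by 0.65 ± 0.12 (FDR 0.000497). ZKSCAN1, whose gene is also the source of an abundant liver circular RNA that these data do not separate, fell by 0.50 ± 0.16 (FDR 0.022) and by 0.65 ± 0.15 (FDR 0.00292). In high glucose the ZKSCAN1 call was lost without HG replicate 1 (FDR 0.0661) and with library size only (FDR 0.0948). ZKSCAN2 and ZSCAN29 were the remaining genes that fell in both media. Their calls in low glucose were lost in 4 and 6 of the 6 fits that left out a library (ZKSCAN2 kept it without LG replicate 2 or LGV replicate 1, highest FDR 0.134 and 0.158).

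**Figure D3:**
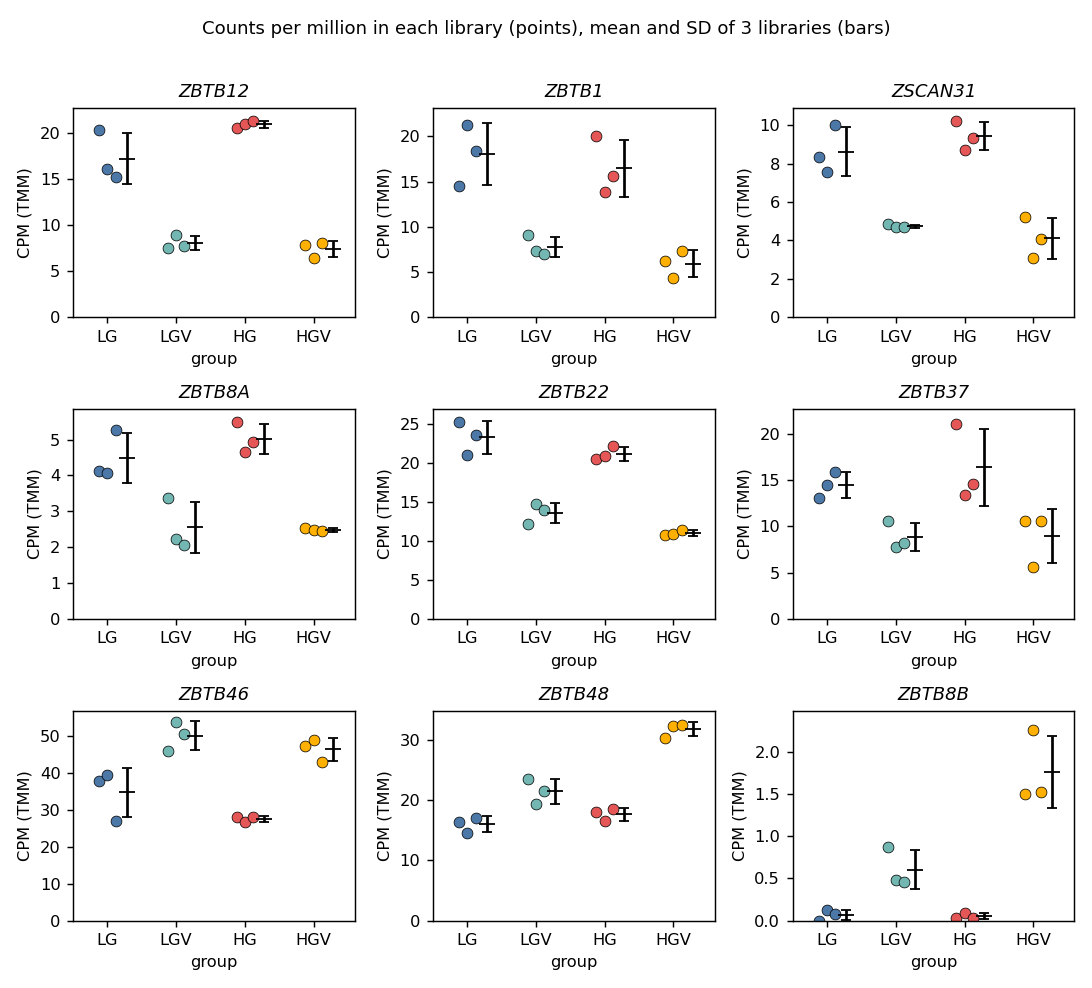
CPM in each library (points, 3 per group) with the mean and SD beside them (bar), for 6 genes that fell and 3 that rose with VPA in both media. In the first 6 panels every LGV and HGV library lies below every LG and HG library of the same medium, and in the last 3 every one lies above.

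The genes that rose in both media were ZBTB46, ZBTB48 and ZBTB8B. ZBTB46, which marks classical dendritic cells among blood cells, was at 28.0, 26.7 and 28.0 CPM in HG and 47.4, 48.9 and 42.9 CPM in HGV, and at 37.8, 39.4 and 27.0 CPM in LG and 45.9, 53.8 and 50.5 CPM in LGV. LG replicate 3 lay well below the other LG libraries, and no groups of 1 medium overlapped. Its log2 fold change was 0.75 ± 0.10 (FDR 8.94e-05) in high glucose and 0.54 ± 0.14 (FDR 0.00715) in low glucose.

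ZBTB48, also called TZAP, binds telomere repeats and lies at chr1:6640054-6649340 (GRCh37, plus strand). It held 18.0, 16.5 and 18.6 CPM in HG and 30.4, 32.4 and 32.5 CPM in HGV. LG stood at 16.4, 14.5 and 17.1 CPM and LGV at 23.5, 19.3 and 21.6 CPM. All HGV libraries were above all LGV libraries, although HG and LG overlapped. The VPA response was 0.84 ± 0.11 on the log2 scale in high glucose (FDR 5.02e-05) and 0.44 ± 0.14 in low glucose (FDR 0.0223), and the second was lost in 4 of the 6 fits that left out a library (LG replicates 1 and 2, LGV replicates 1 and 3, highest FDR 0.0799). The difference between media did not pass the test of the interaction (0.42 ± 0.18, FDR 0.372).

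ZBTB8B was close to absence without VPA. It had 1, 3 and 1 reads in HG and 49, 95 and 52 reads in HGV, a ratio of pooled depth-adjusted reads of 36.3 (95% exact interval 15.3 to 113, counting error only). In low glucose it had 0, 5 and 3 reads in LG and 29, 15 and 17 reads in LGV, a ratio of 7.95 (interval 3.79 to 19.2). Every treated library was above every untreated one. The FDR was 2.08e-06 in high glucose and 0.00101 in low glucose. ZBTB8B was the only one of the 60 genes with a mean under 10 reads in the untreated libraries. It therefore entered the table through its VPA libraries, mostly those of HGV, and had to differ in high glucose. It did not need its rise in low glucose for that entry. Its neighbour ZBTB8A, at 4.64 to 5.48 CPM in HG and 2.44 to 2.54 CPM in HGV, moved the other way.

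Of the 23 genes called in high glucose, 14 were called in the same direction in low glucose (60.9%), which is 70.0% of the 20 called there. Of all genes called in HGV against HG, 70.1% were called in the same direction in LGV against LG, which is 77.1% of those called there. These comparisons share no library. Across 59 of the genes, ZBTB8B left out, the log2 fold changes in both media had Pearson's r = 0.77, a description over genes that share libraries and are not independent (0.88 with ZBTB8B). Over all genes tested in both media r was 0.91. Signs matched for 81.7% of the 60 genes and 81.9% of all genes.

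**Figure D4:**
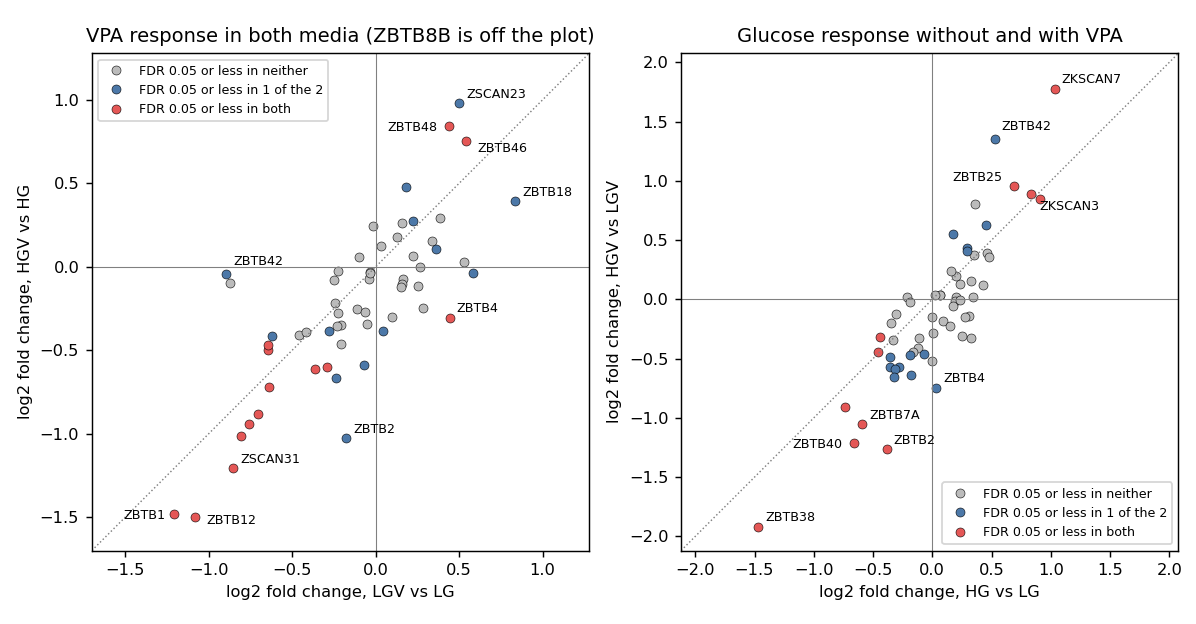
log2 fold changes of the genes in pairs of comparisons that share no library, the VPA response in low (x) and high glucose (y) on the left and the glucose response without (x) and with VPA (y) on the right, with the line of equality dotted. Colours give the number of the 2 comparisons with an FDR of 0.05 or less, ZBTB8B is off the left plot, and ZBTB4 is the only red point with opposite signs.

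The genes called in high glucose alone included ZBTB2, a repressor of CDKN1A. It was at 32.6, 31.3 and 30.9 CPM in HG against 13.9, 14.9 and 17.8 CPM in HGV, and at 39.5, 42.9 and 43.4 CPM in LG against 30.4, 41.5 and 38.6 CPM in LGV. HGV stood alone below every other library, while LG and LGV overlapped. It fell by 1.03 ± 0.12 on the log2 scale in high glucose (FDR 2.49e-05). ZBTB38, ZBTB40, ZBTB7A and ZBTB44 fell there too, by 0.66, 0.59, 0.38 and 0.38 on the log2 scale, and ZSCAN23 and ZKSCAN5 rose by 0.98 and 0.27. The ZBTB7A, ZSCAN23 and ZKSCAN5 calls had FDR values of 0.0266, 0.042 and 0.0432 and were lost in 2, 5 and 5 of the 6 fits that left out a library. For ZBTB7A these left out HG replicate 2 or HGV replicate 3 (highest FDR 0.144), and for the others any library but HGV replicate 2 (highest FDR 0.167 and 0.177). The ZBTB7A call was also lost with upper quartile factors, with library size only and in the fit of all 12 libraries, the ZSCAN23 call with the DESeq2 Wald test and in the fit of all 12 libraries, and the ZKSCAN5 call with the size factors and the Wald test of DESeq2. ZBTB44 kept its call only without HG replicate 2 or HGV replicate 3 (highest FDR 0.12). ZSCAN23 rested on 5 to 30 reads per library.

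Called in low glucose alone, ZBTB18, a repressor in neural development, was at 6.62, 9.41 and 6.56 CPM in LG and 11.7, 14.2 and 14.2 CPM in LGV. Its LGV libraries were the highest of all 12, and it rose by 0.83 ± 0.18 on the log2 scale (FDR 0.00211). In high glucose it had 0.39 ± 0.18 (FDR 0.0934), with overlapping libraries. Its paralogue ZBTB42 was at 12.1, 6.94 and 14.2 CPM in LG and 8.49, 4.71 and 4.51 CPM in LGV, which overlap. It fell by 0.90 ± 0.28 (FDR 0.0187), and 4 of the 6 fits that left out a library lost the call (LG replicates 1 and 3, LGV replicates 2 and 3, highest FDR 0.101). ZSCAN16 rose by 0.59 ± 0.19 (FDR 0.0204) and ZBTB10, which binds a variant telomere repeat, by 0.36 ± 0.13 (FDR 0.0399). The ZSCAN16 call was lost without LG replicate 1 or LGV replicate 2 or 3 (highest FDR 0.0843), and the ZBTB10 call without any library but LG replicate 2 (highest FDR 0.137). ZBTB3 was also lower, a call kept only without LG replicate 2 among these fits (highest FDR 0.118). In high glucose ZBTB3 had -0.41 ± 0.17 (FDR 0.063), with every HGV library below every HG library. ZBTB42, ZSCAN16 and ZBTB10 had -0.04, -0.04 and 0.11 there (FDR 0.801, 0.861 and 0.631).

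ZBTB4, which binds methylated CpG sites, was called in opposite directions in the 2 media. It was at 32.5, 33.9 and 29.5 CPM in LG and 36.1, 50.2 and 42.9 CPM in LGV, a rise of 0.44 ± 0.14 on the log2 scale (FDR 0.0168). In high glucose it was at 28.9, 34.3 and 33.1 CPM in HG and 26.5, 25.8 and 25.6 CPM in HGV, and it fell by 0.30 ± 0.11 (FDR 0.0395). Groups did not overlap in either medium. The fall was lost in 5 of the 6 fits that left out a library (HG replicates 2 and 3 and each HGV replicate, highest FDR 0.147) and with upper quartile factors, library size only or the fit of all 12 libraries, and the rise was lost without LG replicate 1 or LGV replicate 2.

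The test of whether the VPA response differed between media was the interaction over all 12 libraries. It called 7 of 16389 genes (0.0427%) and none of the 60 in edgeR's quasi-likelihood test. The smallest p values were those of ZBTB2 (-0.84 ± 0.19, FDR 0.0754), ZBTB4 (-0.73 ± 0.18, FDR 0.104) and ZBTB42 (0.87 ± 0.33, FDR 0.297). The likelihood ratio test of edgeR and the Wald test of DESeq2 each called ZBTB2 and ZBTB4. Over all alternatives the FDR ran from 0.00541 to 0.241 for ZBTB2, from 0.0225 to 0.327 for ZBTB4 and from 0.0522 to 0.628 for ZBTB42. Both ZBTB2 and ZBTB4 were called without LG replicate 2, and ZBTB2 alone without LGV replicate 1.

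The glucose comparison without drug asked which of these genes differed after 48 h at 20 mM. Of 59 genes tested between HG and LG, 7 were lower (11.9%) and 4 higher (6.78%), beside 12.7% of all genes lower and 12.0% higher. ZBTB8B had too few reads to be tested. The median log2 fold change was 0.07 for the 59 genes and 0.01 for all genes. With upper quartile factors 6 were higher and 5 lower, where the median of all genes moved to 0.10. The count of higher genes was 0 without LG replicate 1, 1 without LG replicate 2 or HG replicate 1, 2 without HG replicate 2 or 3, and 9 without LG replicate 3, and the count of lower genes was 3 without HG replicate 3 or without LG replicate 1 or 2 and 4 without HG replicate 2.

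ZBTB38, a methyl-CpG binding repressor at chr3:141043055-141168634 (GRCh37, plus strand), differed most with glucose. It was at 156, 210 and 128 CPM in LG and 71.0, 51.8 and 53.5 CPM in HG. With VPA it was at 110, 154 and 152 CPM in LGV and 39.2, 29.4 and 42.6 CPM in HGV. Each high glucose library was below each low glucose library, and LG replicate 2 was the highest of all 12. It fell by 1.47 ± 0.16 on the log2 scale in HG against LG (FDR 5.38e-06) and by 1.92 ± 0.16 in HGV against LGV (FDR 1.48e-07). Both calls held in all fits that left out a library and in the alternatives run (highest FDR 0.000598 and 1.34e-05).

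ZBTB7B was at 76.3, 63.4 and 49.8 CPM in LG and 32.6, 41.0 and 38.1 CPM in HG. LG was wide but did not reach HG, and the gene fell by 0.74 ± 0.15 on the log2 scale (FDR 0.00218). ZBTB40 was at 105, 134 and 81.2 CPM in LG and 70.6, 65.0 and 63.6 CPM in HG, without overlap, and fell by 0.66 ± 0.15 (FDR 0.00397). ZBTB7A, or LRF, a repressor of the fetal globin genes, was at 70.8, 70.8 and 46.3 CPM in LG and 37.6, 48.2 and 36.7 CPM in HG. Its LG replicate 3 was below HG replicate 2, and its fall of 0.59 ± 0.16 (FDR 0.0136) was lost in 4 of the 6 fits that left out a library (HG replicates 1 and 3, LG replicates 1 and 2, highest FDR 0.107). ZBTB5, a repressor of CDKN1A, fell by 0.46 ± 0.13 (FDR 0.0165), lost without HG replicate 2 or 3 or LG replicate 1 or 2 (highest FDR 0.096). ZBTB2 fell by 0.38 ± 0.13 (FDR 0.0375), lost in all 6 of these fits (highest FDR 0.191). ZSCAN2 was lower as well, a call kept only without LG replicate 3 (highest FDR 0.174).

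ZKSCAN3, a repressor of autophagy and lysosome genes, was at 5.20, 3.52 and 7.07 CPM in LG and 9.41, 8.88 and 9.38 CPM in HG. The LG libraries were spread wider than HG, and LG replicate 3 was the closest to HG. It rose by 0.83 ± 0.22 on the log2 scale (FDR 0.00944), which was lost without LG replicate 1 (FDR 0.0525). ZBTB25 was higher in HG by 0.69 ± 0.23 (FDR 0.0332), lost without HG or LG replicates 1 or 2 (highest FDR 0.127), and LG replicate 3 and HG replicate 3 were both at 6.97 CPM. Among the genes outside the rule for named genes, singled out after their values were seen, ZKSCAN7 was at 1.50, 0.724 and 3.34 CPM in LG and 3.90, 3.23 and 4.17 CPM in HG. LG replicate 3 reached into the HG range, and the log2 fold change was 1.03 ± 0.35 (FDR 0.0389). ZBTB47 was higher by 0.91 ± 0.31 (FDR 0.0358). The ZKSCAN7 call was kept only without HG replicate 2 or LG replicate 3 (FDR 8.15e-05 to 0.174 over the 6 fits), and the ZBTB47 call only without LG replicate 3 (FDR 0.00527 to 0.101).

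**Figure D5:**
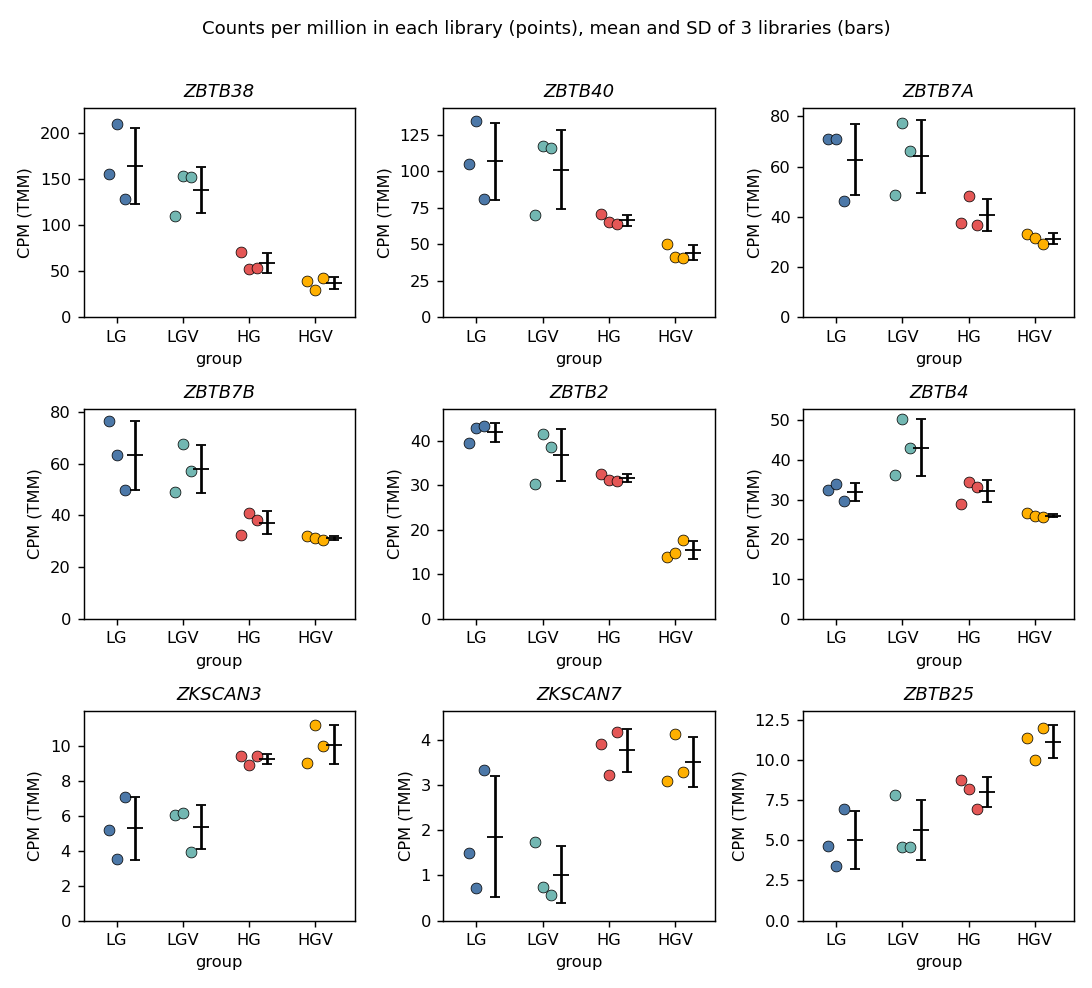
CPM in each library (points, 3 per group) with the mean and SD beside them (bar), for 9 genes that differed between glucose levels, with or without VPA. ZBTB38, ZBTB40, ZBTB7A, ZBTB7B and ZBTB2 have their lowest libraries in HGV, ZBTB4 passed the test for glucose under VPA and not without it, and ZKSCAN3, ZKSCAN7 and ZBTB25 have wider spread in LG than in HG.

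Under VPA more of these genes differed with glucose. Of 60 genes tested between HGV and LGV, 16 were lower (26.7%) and 10 higher (16.7%), beside 19.5% of all genes lower and 21.2% higher. Among ZBTB genes 13 of 38 were lower and 7 higher. Among ZSCAN genes 2 of 15 were lower and none higher, and among ZKSCAN genes 1 of 7 was lower and 3 higher. The median log2 fold change was -0.13 for these genes and 0.01 for all genes. The count of higher genes was 6 without LGV replicate 3. That more genes passed here than without VPA was not tested as a difference beyond the interaction above.

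All 11 genes called in HG against LG were called in the same direction in HGV against LGV. That is 44.0% of the 25 genes called there among those tested in both. Of all genes called in HG against LG, 75.6% were, which is 45.9% of those called in HGV against LGV. These comparisons share no library. The log2 fold changes of the 59 genes tested in both had Pearson's r = 0.88, and those of all genes tested in both had r = 0.78, again as a description over genes. The count of 11 fell to 3 without LG replicate 1, 4 without LG replicate 2, 5 without HG replicate 3 and 6 without HG replicate 1 or 2. In these fits fewer genes were called in HG against LG itself, and all of those were still shared.

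ZBTB2, ZBTB40, ZBTB7A and ZBTB7B fell by 1.26 ± 0.14 (FDR 4.62e-06), 1.21 ± 0.17 (FDR 2.82e-05), 1.05 ± 0.15 (FDR 3.49e-05) and 0.91 ± 0.13 (FDR 4.2e-05) on the log2 scale in HGV against LGV. ZBTB7A was at 48.7, 77.4 and 66.2 CPM in LGV and 33.3, 31.5 and 29.1 CPM in HGV, and ZBTB40 at 69.8, 117 and 116 CPM in LGV and 50.4, 41.3 and 40.8 CPM in HGV. For both genes LGV replicate 1 was the lowest LGV library and still above HGV. ZBTB42 was at 8.49, 4.71 and 4.51 CPM in LGV and 14.7, 16.8 and 14.2 CPM in HGV and rose by 1.35 ± 0.20 (FDR 6.9e-05). ZBTB4 fell by 0.75 ± 0.13 (FDR 0.000266), while without drug LG and HG overlapped.

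ZBTB18 fell by 0.64 ± 0.16 (FDR 0.00416) and ZBTB10 by 0.47 ± 0.14 (FDR 0.0117, 0.0612 with library size only) in HGV against LGV. ZBTB48 rose by 0.55 ± 0.12 (FDR 0.00198), ZKSCAN3 by 0.89 ± 0.19 (FDR 0.00114) and ZBTB25 by 0.96 ± 0.20 (FDR 0.00103). ZBTB8B was 2.90-fold higher in HGV than in LGV (FDR 0.00119), but the HGV libraries were those that mainly brought it into the table. ZKSCAN1 rose by 0.41 ± 0.16 (FDR 0.0414) with overlapping libraries, and the call was lost without HGV replicate 1 or 3 or LGV replicate 2 or 3 (highest FDR 0.241). The remaining genes called were ZBTB3, ZBTB9, ZBTB47 and ZKSCAN7, which were higher, and ZBTB5, ZBTB21, ZBTB34, ZBTB38, ZBTB43, ZBTB44, ZKSCAN2, ZSCAN2 and ZSCAN29, which were lower. Of these, ZBTB3 lost its call in 4 of the 6 fits that left out a library, ZBTB9 and ZBTB21 in 3 each, ZSCAN2 in 5, ZBTB47 in 1 and ZBTB5 in 2 (highest FDR 0.191, for ZSCAN2).

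Several members with well known roles did not pass in any of the 4 comparisons. ZBTB17, or MIZ1, the partner through which MYC represses cell cycle inhibitors, ranged from 17.1 to 25.2 CPM over the libraries. ZBTB33, or Kaiso, a methyl-CpG binding factor, ranged from 15.1 to 27.5 CPM, and ZBTB24, mutated in an immunodeficiency syndrome with loss of DNA methylation, from 6.66 to 9.75 CPM. ZSCAN21 was at 5.54 to 8.41 CPM, and this value is uncertain, because ZNF3 on the opposite strand overlaps 41.1% of its exon bases and the strand setting of the counting is not given in the sources used here. ZSCAN4, a marker of the early embryo linked to telomere length, had 16 to 44 reads per library, and ZBTB20 had 17 to 42, so that small differences were not detectable at this depth in either. The ZBTB20 count is also uncertain because of the exon bases it shares with another gene. ZBTB16, ZBTB32, ZSCAN10 and several further family members were not analysed here.

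The genes were also grouped by role, and the counts stand beside the shares of all genes called, which were 20.2% lower and 25.8% higher in HGV against HG, 19.9% and 21.7% in LGV against LG, 12.7% and 12.0% in HG against LG, and 19.5% and 21.2% in HGV against LGV. The methyl-CpG binding genes (ZBTB4, ZBTB33, ZBTB38) gave 2 that fell and none that rose in HGV against HG, and 1 that rose and none that fell in LGV against LG. With glucose 1 of them was lower without drug and 2 were lower under VPA, and none was higher. The partners of p53, MYC and CDKN1A (ZBTB17, ZBTB2, ZBTB5, ZBTB4, ZBTB7A) gave 3 of 5 that fell in HGV against HG and 1 that rose in LGV against LG. They gave 3 lower in HG against LG and 4 lower in HGV against LGV, and none was called the other way within a comparison. In HG against LG the ZBTB2, ZBTB5 and ZBTB7A calls were lost in 6, 4 and 4 of the 6 fits that left out a library. In HGV against HG the ZBTB4 and ZBTB7A calls were lost in 5 and 2 of these fits, and the ZBTB2 call in none. The lineage factors (ZBTB7A, ZBTB7B, ZBTB20, ZBTB46, ZBTB18, ZBTB1, ZBTB24) gave 2 of 7 that fell and 1 that rose in HGV against HG, and 1 that fell and 2 that rose in LGV against LG. With glucose 2 of them were lower without drug and 3 were lower under VPA, and none was higher. Of the 4 genes linked to telomeres or genome stability (ZBTB48, ZBTB10, ZBTB40, ZSCAN4), 1 rose and 1 fell in HGV against HG, and 2 rose in LGV against LG. The latter were ZBTB48 and ZBTB10, whose calls were lost in 4 and 5 of the 6 fits that left out a library. With glucose 1 of the 4 was lower without drug, and 1 was higher and 2 were lower under VPA.

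By position, 13 of the 60 genes lie on chromosome 6 and 10 on chromosome 1. Of the 8 genes measured from the SCAN cluster of chromosome 6, ZSCAN31 fell and ZSCAN23 rose in HGV against HG, and ZSCAN31 fell and ZSCAN16 rose in LGV against LG. The ZSCAN23 and ZSCAN16 calls were lost in 5 and 3 of the 6 fits that left out a library. ZKSCAN3 was the one gene of the cluster that differed with glucose, higher in both comparisons. In the chromosome 7 cluster of 4 genes, ZKSCAN1 and ZSCAN25 fell in both media and ZKSCAN5 rose in HGV against HG. ZKSCAN1 was also higher in HGV against LGV. The ZKSCAN5 call and this ZKSCAN1 call were lost in 5 and 4 of the 6 fits that left out a library. None of the 3 measured genes of the chromosome 19 cluster passed in any comparison. Over all genes, 20.2% were lower and 25.8% higher in HGV against HG, and 19.9% and 21.7% in LGV against LG. The shares were 12.7% and 12.0% in HG against LG, and 19.5% and 21.2% in HGV against LGV.

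Related genes with other symbols were counted in the same fits, in which 20.2% of all genes were lower and 25.8% higher in HGV against HG and 19.9% and 21.7% in LGV against LG. Of 7 BTB zinc finger genes, 2 rose and 2 fell in HGV against HG and 1 rose and 1 fell in LGV against LG. The tumour suppressor HIC1 had mean levels of 0.909 CPM in LG, 6.57 in LGV, 0.675 in HG and 2.03 in HGV, with log2 fold changes of 2.86 ± 0.26 (FDR 1.04e-06) in low and 1.57 ± 0.26 (FDR 0.000366) in high glucose. PATZ1 fell by 1.13 ± 0.12 (FDR 5.16e-06) and by 1.56 ± 0.12 (FDR 4.82e-07). Of 27 SCAN genes, 3 rose and 6 fell in HGV against HG and 4 rose and 5 fell in LGV against LG, with ZNF483 and ZNF396 higher and ZNF444, ZNF24, MZF1 and PEG3 lower in both. With glucose 4 were higher and 3 lower without drug, and 6 and 8 under VPA, against 12.0% and 12.7% and 21.2% and 19.5% of all genes.

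Of 14 co-repressors and partners, 3 rose and 7 fell in HGV against HG (25.8% and 20.2% of all genes) and 2 rose and 6 fell in LGV against LG (21.7% and 19.9% of all genes). TRIM28, which KRAB domains bind, fell by 0.50 ± 0.10 (FDR 0.00183) in high and by 0.62 ± 0.14 (FDR 0.00198) in low glucose, and SETDB1, a histone methyltransferase of the same complex, by 0.75 ± 0.10 (FDR 6.65e-05) and 0.65 ± 0.12 (FDR 0.000455). BCOR, a partner of BTB domains, fell by 0.54 ± 0.11 (FDR 0.00136) and 0.44 ± 0.12 (FDR 0.00855). HDAC3, the deacetylase that works with NCOR1, rose by 0.54 ± 0.12 (FDR 0.00315) and 0.36 ± 0.12 (FDR 0.021). With glucose, 1 rose and 1 fell without drug (12.0% and 12.7% of all genes), and 1 rose and 4 fell under VPA (21.2% and 19.5%).

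Targets of these factors known from other systems were given as values. CDKN1A, the p21 gene, rose by 0.44 ± 0.13 in HGV against HG (FDR 0.0151) and had 0.55 ± 0.26 in LGV against LG (FDR 0.107). CDKN2B rose by 1.17 ± 0.20 in LGV against LG (FDR 0.000286) and had 0.29 ± 0.19 in HGV against HG (FDR 0.233). With glucose under VPA both fell, CDKN1A by 0.67 ± 0.18 (FDR 0.00655) and CDKN2B by 0.77 ± 0.18 (FDR 0.0027), and neither passed without drug (FDR 0.0667 and 0.657). AFP, which ZBTB20 represses, did not pass in any comparison and had mean levels between 4850 and 5950 CPM.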

How the data were processed

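The authors trimmed 50 nt single-end reads of poly(A)-selected RNA, aligned them with STAR to GRCh37, counted reads of map quality 10 or more per Ensembl gene with featureCounts, and deposited raw counts for 16389 genes with a mean of at least 10 reads. The libraries were made with a directional kit, which keeps the strand of the RNA, but the strand setting of the counting is not given in the sources used here. Differences in counts were tested with edgeR 4.0.16, run in R 4.3.3 (TMM, dispersion from the libraries compared, quasi-likelihood F test, mean count of at least 10, Benjamini-Hochberg over all genes tested) and called at an FDR of 0.05. CPM used TMM factors. Exon lengths and positions came from a later GENCODE release lifted to GRCh37, so lengths differ from the authors' annotation. A simulation with known changes was used to test the code.

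The genes and lists were chosen with earlier results of these data known. The genes described were, per VPA comparison, the 8 called genes with the largest rise and the 8 with the largest fall, per glucose comparison the 6 with the smallest p, for the interaction the 3 with the smallest p, and genes with well known roles. Other called genes are named to account for each, after their values were seen. Same-numbered libraries correlated from -0.201 to 0.295 in their deviations from the group means, so numbers were not taken as pairs. Alternatives were DESeq2 1.42.0 size factors and Wald test, upper quartile factors, library size only, the likelihood ratio test, no filter, 1 CPM in at least 3 libraries, a replicate block, one fit of 12 libraries, an FDR of 0.01 and leaving out each library. One gene of the planned list of co-repressors was left out of it and is not reported here.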

Additional observations from a re-analysis of the deposited data

Results flagged for a closer look

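ZBTB4 stood out because every LGV library was above every LG library and every HGV library below every HG library. Its interaction log2 fold change was -0.735 (edgeR's quasi-likelihood test, FDR 0.104), and over the alternatives the FDR ran from 0.0225 to 0.327. ZSCAN16 stood out because every HG library (6.40 to 6.47 CPM) was above every LG library (4.52 to 6.02 CPM) while every HGV library (5.61 to 6.68 CPM) was below every LGV library (7.08 to 8.28 CPM). Neither glucose comparison of ZSCAN16 passed the test, and its interaction was -0.611 (FDR 0.303).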

How the results depend on the processing

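Of the 11 counts of called genes, the replicate block moved none by over 1.5 times (HGV against HG 7 higher and 20 lower, LGV against LG 8 and 12, HG against LG 5 and 5, HGV against LGV 10 and 17, interaction 0, both VPA comparisons 14, both glucose comparisons 10). With library size only, 11 were higher in HGV against HG, and 12 higher and 6 lower in LGV against LG. The interaction called 2 with the likelihood ratio test and 2 with the DESeq2 Wald test, against 0. At an FDR of 0.01, 3 were higher in HGV against HG, 3 higher and 7 lower in LGV against LG, 1 higher and 3 lower in HG against LG, 8 shared between the VPA comparisons and 4 between the glucose comparisons.

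Leaving out 1 library at a time gave 3 to 8 higher and 15 to 18 lower in HGV against HG, 3 to 7 higher and 8 to 14 lower in LGV against LG, 0 to 9 higher and 3 to 10 lower in HG against LG, 6 to 12 higher and 13 to 19 lower in HGV against LGV, 0 to 2 in the interaction, 10 to 16 shared between the VPA comparisons and 3 to 15 between the glucose comparisons. The shared counts were an addition made after seeing the data. For 63 values of single genes the alternatives at an FDR of 0.05, each left-out library counted, gave 957 values, of which 88 lost the call, 7 gained it and 0 reversed the direction. The higher median shifts of all genes were 0.146 (HGV against HG), 0.156 (LGV against LG) and 0.106 (HG against LG) with library size only and 0.102 (HG against LG) and 0.101 (HGV against LGV) with upper quartile factors. The cause of these differences was not tested.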
